A study of Homo sapiens with 9 samples.

Results

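The 58 cell cycle and mitosis genes described here were chosen as a list of gene symbols, from the proteins that start DNA replication to those that drive and end mitosis. Each gene was read through the brightest of its probe sets, averaged over all arrays, and all 58 were measured above the filter on dim probe sets, out of 14863 genes tested. Expression was read in PC3, a prostate cancer line grown from a human bone metastasis, after 48 h in culture, with 9 arrays of the Affymetrix U133 Plus 2.0 type. PC3 cells were cultured with osteoblasts of Sost knockout mice (OB SostKO, 2 arrays), with wild type osteoblasts and 100 ng/ml recombinant human DKK1 (OB WT + rhDKK1, 2 arrays), with wild type osteoblasts and 100 ng/ml recombinant human SOST (OB WT + rhSOST, 3 arrays), or alone (untreated PC3, 2 arrays). Sost encodes sclerostin, which like DKK1 binds Wnt co-receptors. The osteoblasts were primary cells of the skull bones of newborn mouse pups, and the layout of the co-cultures behind these arrays is not given in the sources used here. PC3 cells with wild type osteoblasts and no added protein were not analysed here, so osteoblasts and added protein cannot be told apart in those co-cultures. Arrays of a group are labelled as biological replicates with no link to separate animals, so the tests measure the spread between these arrays.

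A cell commits to division when cyclins activate the cyclin-dependent kinases CDK2 and CDK1, and small inhibitor proteins hold those kinases back. Most genes of the list are transcribed in waves: E2F factors drive the genes of DNA replication, and a complex that later includes MYBL2 and FOXM1 drives the genes of mitosis. In a growing culture the RNA of these genes therefore follows the share of cells in each phase. The arrays read the RNA of many cells, so fewer cells in a phase and less RNA per cell cannot be told apart.

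RNA of the cyclin-dependent kinase inhibitor CDKN1A fell in each of the co-cultures. Most of the replication and mitosis genes stayed close to their level in untreated PC3 cells, as did most of all genes tested. Over the average of the 3 co-culture groups, 4 members were higher than in untreated PC3 cells at an adjusted p under 0.05 (limma, Benjamini-Hochberg over all genes), namely MCM2, RRM1, AURKA and KIF2C, and CDKN1A alone was lower. Of all genes tested, 6.55% were higher and 4.03% were lower in this comparison, so the count of higher members was near this background and that of lower members under it. With OB SostKO, 0 members were higher and 1 was lower, beside 2.07% and 1.65% of all genes. With OB WT + rhDKK1, 0 were higher and 1 was lower, beside 2.5% and 1.76%. With OB WT + rhSOST, 1 was higher and 1 was lower, beside 4.87% and 2.1%. At an unadjusted p under 0.05, limma gave 7 members higher and 5 lower with OB SostKO, 10 and 4 for OB WT + rhDKK1, 15 and 2 for OB WT + rhSOST, and 10 and 6 over all co-cultures. The shares of all genes at this threshold are not set beside these counts, so no shift of the members is read from them. All of these comparisons share the untreated arrays.

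**Figure D1:**
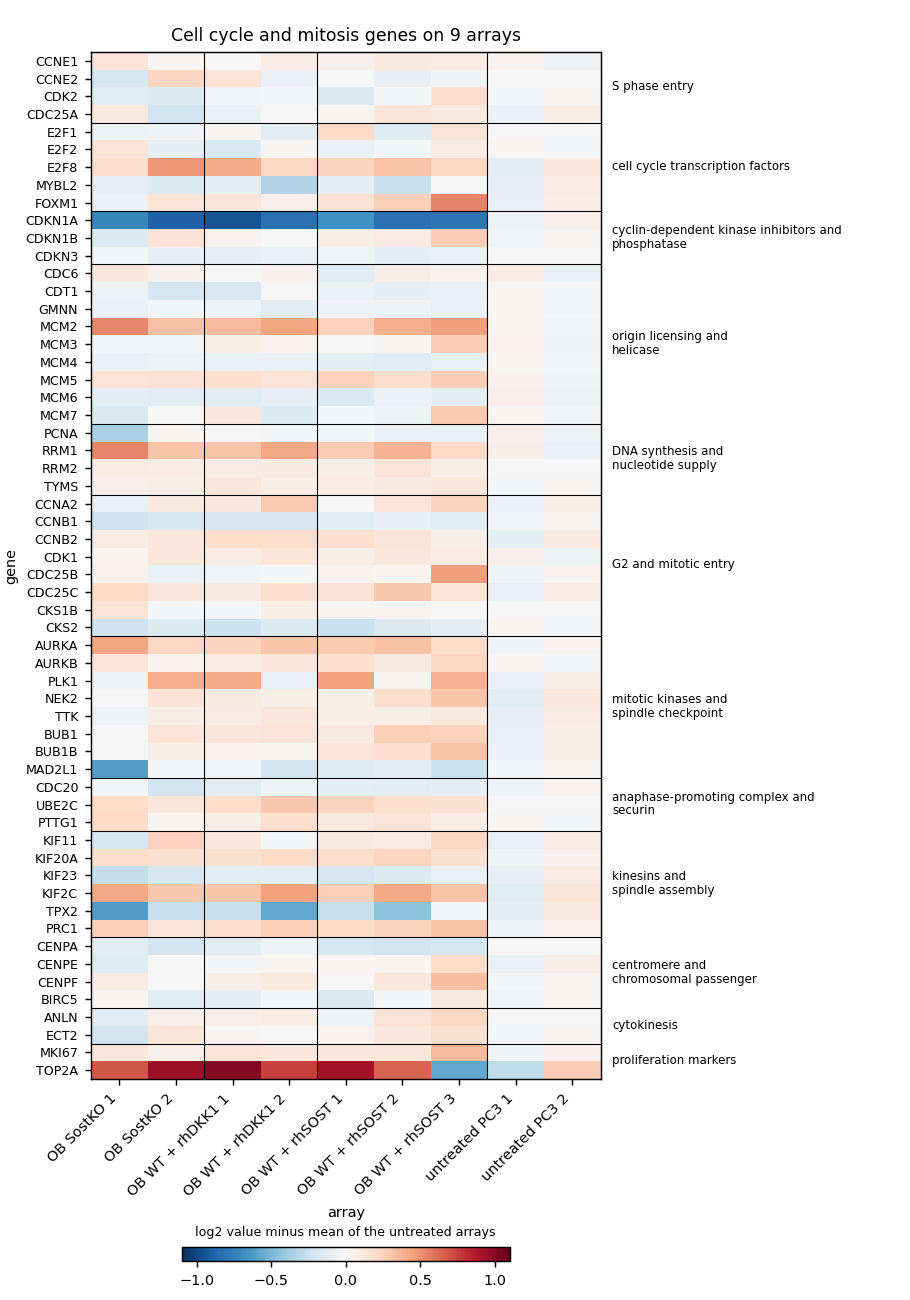
Each row is a cell cycle gene and each column an array, with the log2 value minus the mean of the 2 untreated arrays in colour, red where higher and blue where lower, and role groups named at the right. CDKN1A is blue on all 7 co-culture arrays, MCM2, RRM1, AURKA and KIF2C are red on all 7, most other rows are pale, and TOP2A differs in colour between OB WT + rhSOST array 3 and the other co-culture arrays.

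Measured from untreated PC3, the 58 members had a median log2 difference of 0.02 in OB SostKO co-culture, beside -0.01 over all genes tested. From the same reference, the median of the members was 0.04 in the OB WT + rhDKK1 co-culture, beside -0.01 over all genes. It was 0.09 in the OB WT + rhSOST co-culture, beside 0.02 over all genes. Over all co-cultures it was 0.05, with 37 members above 0 and 21 below, beside -0.00 for all genes. The 95% interval of the difference over all co-cultures lay within 0.5 log2 units of 0 for 49 of the 58 members (84.5%), beside 81.9% of all genes. It lay within 1 unit, a 2-fold change, for 57 members (98.3%), beside 98.5% of all genes. Both shares were near those of all genes. From the lowest to the highest of the 9 arrays, the median member spanned 0.35 log2 units and the median gene 0.39. The span was under 0.5 for 47 members (81.0%, beside 69.9% of all genes). It was above 1 for 2 of the 58 members, CDKN1A and TOP2A, beside 446 of the 14863 genes tested. All 7 co-culture arrays lay above both untreated arrays for 15 members, beside 15.4% of all genes, and below both for 8 members, beside 11.3%. In shares of the members these were 25.9% and 13.8%.

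**Figure D2:**
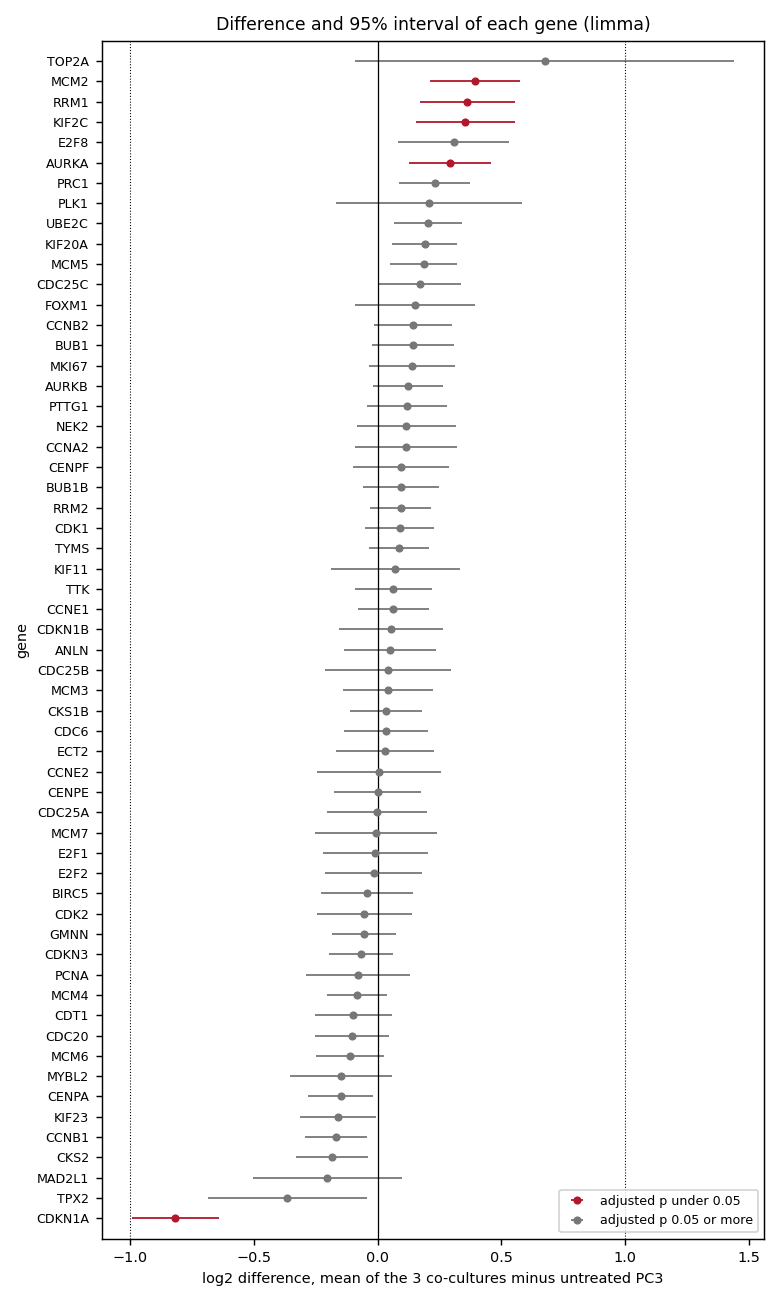
Each point is the log2 difference of a gene, the mean of the 3 co-culture groups minus untreated PC3, with its 95% interval from limma, and dotted lines mark a 2-fold change. CDKN1A stands at -0.82, apart from all other genes, MCM2, RRM1, AURKA and KIF2C lie between 0.29 and 0.39 with intervals above 0, and the widest interval belongs to TOP2A.

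Cyclin-dependent kinase inhibitors held the lowest difference of the list. CDKN1A encodes p21, which binds and stops CDK2 and other cyclin-dependent kinases. The gene is read by 1 probe set, so no other probe set could be compared. The log2 value of CDKN1A was 8.46 and 8.29 with OB SostKO, 8.23 and 8.35 with OB WT + rhDKK1, and 8.51, 8.35 and 8.38 with OB WT + rhSOST, against 9.12 and 9.23 in untreated PC3 cells. Every co-culture array was below both untreated arrays. The OB SostKO arrays overlapped with those of both other co-cultures, while the OB WT + rhDKK1 arrays lay below the OB WT + rhSOST arrays by less than the last digit shown. The log2 difference was -0.80 (SE 0.10, adjusted p = 0.0058) with OB SostKO, -0.89 (SE 0.10, adjusted p = 0.00395) with OB WT + rhDKK1 and -0.76 (SE 0.09, adjusted p = 0.00307) with OB WT + rhSOST. Over all co-cultures CDKN1A fell by 0.82 on the log2 scale (SE 0.08, adjusted p = 0.000974), and with any array left out the difference stayed between -0.87 and -0.76. When limma was fitted to OB SostKO and untreated arrays only, the adjusted p was 0.0906. By ANOVA with Tukey's comparisons, after adjustment, CDKN1A was not called in any single co-culture.

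The other inhibitor of the list, CDKN1B, which encodes p27, did not pass the test. CDKN1B had log2 values of 9.10 and 9.42 with OB SostKO, 9.30 and 9.25 with OB WT + rhDKK1, and 9.33, 9.34 and 9.53 with OB WT + rhSOST, against 9.23 and 9.29 in untreated PC3 cells, so that the groups overlapped. Its difference over all co-cultures was 0.05 (SE 0.09, adjusted p = 0.747). CDKN3, a phosphatase that acts on cyclin-dependent kinases, was below both untreated arrays on all co-culture arrays, by 0.07 on average (SE 0.06, adjusted p = 0.474). CDKN1C, which encodes the related inhibitor p57 and stands on the list of further checkpoint genes, moved the other way. Its log2 values were 8.34 and 8.39 with OB SostKO, 8.21 and 8.23 with OB WT + rhDKK1, and 8.47, 8.45 and 8.21 with OB WT + rhSOST, against 7.73 and 7.64 in untreated PC3 cells. All co-culture arrays lay above both untreated arrays, with a difference of 0.63 over all co-cultures (SE 0.08, adjusted p = 0.00305), although CDKN1C averaged over its kept probe sets differed by only 0.27 (adjusted p = 0.0757).

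**Figure D3:**
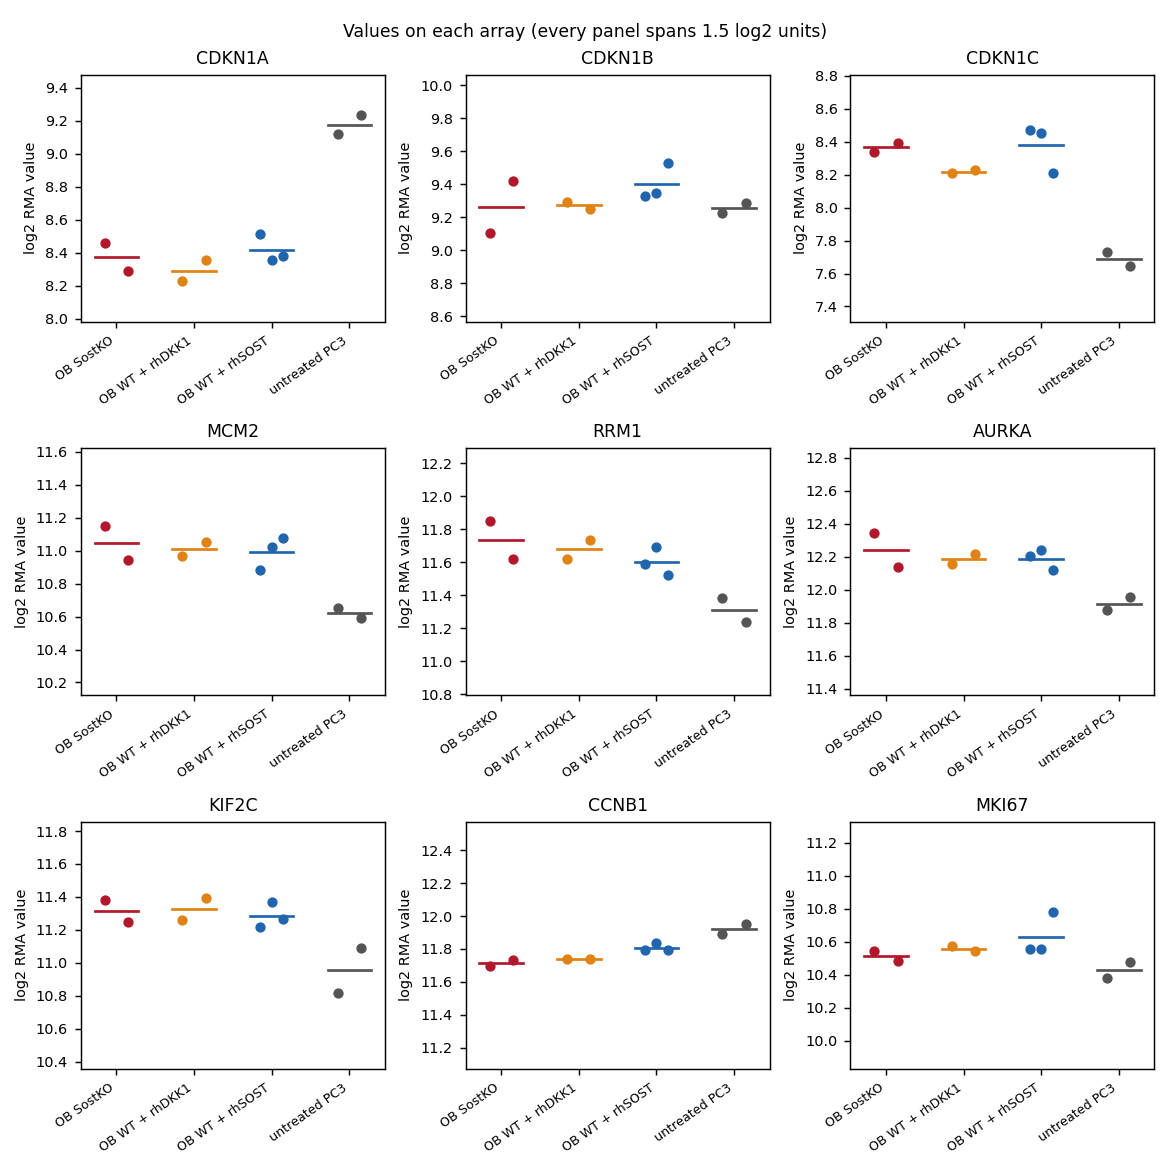
Points are the log2 values of each gene's brightest probe set on single arrays, bars are group means, and each panel spans the same number of log2 units around its own centre. CDKN1A and CCNB1 are lower on all 7 co-culture arrays than on both untreated arrays, CDKN1C, MCM2, RRM1, AURKA, KIF2C and MKI67 are higher, and CDKN1B overlaps.

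None of the 4 genes of S phase entry passed the test. Cyclin E, which activates CDK2 at the start of S phase, is encoded by CCNE1 and CCNE2. CCNE1 was at 8.63 and 8.50 with OB SostKO, 8.48 and 8.57 with OB WT + rhDKK1, and 8.53, 8.58 and 8.58 with OB WT + rhSOST, against 8.52 and 8.45 in untreated PC3 cells. CDK2 was at 9.84 and 9.83 with OB SostKO, 9.95 and 9.95 with OB WT + rhDKK1, and 9.82, 9.97 and 10.16 with OB WT + rhSOST, against 9.96 and 9.99 in untreated PC3 cells. Both genes overlapped between co-culture and untreated arrays. The 4 genes of this group, with CCNE2 and the CDK2-activating phosphatase CDC25A, lay between -0.05 and 0.06 over all co-cultures, and the smallest adjusted p was 0.553.

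Of the 5 transcription factors of the cell cycle, none passed the test. E2F8, a repressor of the E2F family that is itself made in S phase, had log2 values of 9.06 and 9.35 with OB SostKO, 9.27 and 9.10 with OB WT + rhDKK1, and 9.12, 9.19 and 9.10 with OB WT + rhSOST, against 8.74 and 8.995 in untreated PC3 cells. All co-culture arrays were above both untreated arrays, by 0.31 on average (SE 0.10, adjusted p = 0.0841). MYBL2, which helps to switch on genes of G2 and mitosis, was at 10.41 and 10.36 with OB SostKO, 10.41 and 10.18 with OB WT + rhDKK1, and 10.41, 10.26 and 10.51 with OB WT + rhSOST, against 10.42 and 10.59 in untreated PC3 cells. Its groups overlapped, and its difference was -0.15 (adjusted p = 0.334). E2F1 and E2F2, activators of replication genes, differed by -0.01 and -0.02. FOXM1, the forkhead factor of mitotic genes, differed by 0.15 over all co-cultures, with 10.50 and 10.70 with OB SostKO, 10.70 and 10.62 with OB WT + rhDKK1, and 10.72, 10.83 and 11.11 with OB WT + rhSOST, against 10.48 and 10.65 in untreated PC3 cells. OB WT + rhSOST array 3 held the highest FOXM1 value.

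Among the 9 genes of origin licensing and the replicative helicase, MCM2 rose and its partners in the ring of MCM proteins did not pass the test. The MCM proteins form the helicase that opens DNA ahead of the replication fork. MCM2 had log2 values of 11.15 and 10.94 with OB SostKO, 10.97 and 11.05 with OB WT + rhDKK1, and 10.88, 11.02 and 11.08 with OB WT + rhSOST, against 10.65 and 10.59 in untreated PC3 cells. Each co-culture array was above both untreated arrays. MCM2 was higher by 0.39 over all co-cultures (SE 0.08, adjusted p = 0.0179) and by 0.37 with OB WT + rhSOST (SE 0.09, adjusted p = 0.0453), while the differences of 0.42 with OB SostKO and 0.39 with OB WT + rhDKK1 had adjusted p-values of 0.0541 and 0.0654. MCM5 was also higher on every co-culture array, by 0.19 (adjusted p = 0.0832), and MCM3 and MCM7 differed by 0.04 and -0.01. MCM4 and MCM6 were lower on every co-culture array, by 0.08 and 0.11 log2 units (adjusted p = 0.359 and 0.276), although with the mean of their kept probe sets the differences were 0.08 and 0.15 (adjusted p = 0.620 and 0.149). The loading factors CDC6 and CDT1 and the CDT1 inhibitor GMNN lay between -0.10 and 0.03. The MCM2 call over all co-cultures was lost without untreated array 1 (0.42, adjusted p = 0.111) or 2 (0.36, adjusted p = 0.111), where the remaining array was assumed to vary like the other groups, and the call with OB WT + rhSOST was lost without any of the untreated, OB WT + rhDKK1 or OB WT + rhSOST arrays (adjusted p at most 0.169).

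Of the 4 genes of DNA synthesis and nucleotide supply, RRM1, the large subunit of ribonucleotide reductase, rose. RRM1 was at 11.85 and 11.62 with OB SostKO, 11.62 and 11.74 with OB WT + rhDKK1, and 11.59, 11.70 and 11.52 with OB WT + rhSOST, against 11.38 and 11.24 in untreated PC3 cells. All co-culture arrays were above both untreated arrays, and the difference over all co-cultures was 0.36 (SE 0.08, adjusted p = 0.0297). The small subunit RRM2 and the thymidylate synthase TYMS also lay above both untreated arrays on every co-culture array, by 0.09 each (adjusted p = 0.314 and 0.341). PCNA, the clamp that holds DNA polymerase on its template, differed by -0.08 and was lowest on OB SostKO array 1, at 12.41. The RRM1 call was lost without untreated array 1 or 2, OB WT + rhDKK1 array 1 or 2, or OB WT + rhSOST array 1 or 2, with adjusted p-values of 0.106, 0.180, 0.0520, 0.0699, 0.0528 and 0.0548 in that order, and with the mean of its kept probe sets (0.29, adjusted p = 0.0652).

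The 8 genes of G2 and mitotic entry split in direction, and none passed the test with its brightest probe set. With the mean of its kept probe sets CDK1 was higher over all co-cultures, by 0.53 (limma, adjusted p = 0.0234). CCNB1 encodes cyclin B1, the partner of CDK1 at the entry to mitosis. Its log2 values were 11.69 and 11.73 with OB SostKO, 11.74 and 11.74 with OB WT + rhDKK1, and 11.80, 11.84 and 11.79 with OB WT + rhSOST, against 11.89 and 11.95 in untreated PC3 cells. All co-culture arrays were below both untreated arrays, with a difference of -0.17 (SE 0.05, adjusted p = 0.0877). CKS2, a small subunit of the same kinase, was at 12.41 and 12.49 with OB SostKO, 12.40 and 12.49 with OB WT + rhDKK1, and 12.40, 12.49 and 12.55 with OB WT + rhSOST, against 12.67 and 12.62 in untreated PC3 cells. It too lay below both untreated arrays throughout, by 0.18 (adjusted p = 0.106), and CKS1B differed by 0.03. Cyclin A2 (CCNA2), cyclin B2 (CCNB2), CDK1 and the CDK1-activating phosphatases CDC25B and CDC25C had differences of 0.12, 0.14, 0.09, 0.04 and 0.17. Of these, CDC25C lay above both untreated arrays on all co-culture arrays (adjusted p = 0.170). OB WT + rhSOST array 3 was the highest for CDC25B, at 11.23, with the other arrays between 10.70 and 10.81.

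Among the 8 mitotic kinases and spindle checkpoint genes, AURKA rose. AURKA encodes Aurora A, a kinase of the spindle poles. Its log2 values were 12.35 and 12.14 with OB SostKO, 12.16 and 12.22 with OB WT + rhDKK1, and 12.21, 12.24 and 12.12 with OB WT + rhSOST, against 11.87 and 11.96 in untreated PC3 cells. Every co-culture array was above both untreated arrays, with a difference of 0.29 (SE 0.07, adjusted p = 0.0369). The related kinase AURKB was also above them throughout, by 0.12 (adjusted p = 0.243). The mitotic kinase NEK2 and the checkpoint genes TTK, BUB1 and BUB1B lay between 0.06 and 0.14. PLK1, a kinase that acts from mitotic entry to cytokinesis, varied within groups, with 8.02 and 8.46 with OB SostKO, 8.47 and 7.98 with OB WT + rhDKK1, and 8.50, 8.09 and 8.44 with OB WT + rhSOST, against 7.98 and 8.14 in untreated PC3 cells. Its difference of 0.21 had an SE of 0.17. MAD2L1, which holds back anaphase, was below both untreated arrays throughout, at 10.91 on OB SostKO array 1 and between 11.29 and 11.50 on the other co-culture arrays (difference -0.20, adjusted p = 0.359), although its dimmer probe set 236312_at was higher in co-culture. The AURKA call was lost without untreated array 1 (0.25, adjusted p = 0.257) or 2 (0.33, adjusted p = 0.106), OB WT + rhDKK1 array 1 or 2 (0.0718 and 0.0873), or OB WT + rhSOST array 1 or 2 (0.0634 and 0.0708).

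The anaphase-promoting complex marks cyclin B and securin for destruction. UBE2C, the enzyme that supplies it with ubiquitin, was at 12.67 and 12.59 with OB SostKO, 12.66 and 12.76 with OB WT + rhDKK1, and 12.71, 12.64 and 12.63 with OB WT + rhSOST, against 12.47 and 12.46 in untreated PC3 cells. PTTG1, which encodes securin, was at 12.77 and 12.57 with OB SostKO, 12.62 and 12.73 with OB WT + rhDKK1, and 12.66, 12.70 and 12.62 with OB WT + rhSOST, against 12.56 and 12.54 in untreated PC3 cells. Both were higher on every co-culture array, by 0.20 (SE 0.06, adjusted p = 0.0654) and 0.12 (SE 0.07, adjusted p = 0.315), and neither passed the test. CDC20, the activator of the complex, overlapped between the groups and differed by -0.10.

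Of 6 kinesin and spindle genes, KIF2C rose. KIF2C encodes a kinesin that takes apart microtubules at centromeres. Its log2 values were 11.38 and 11.25 with OB SostKO, 11.26 and 11.40 with OB WT + rhDKK1, and 11.22, 11.37 and 11.27 with OB WT + rhSOST, against 10.82 and 11.09 in untreated PC3 cells. All co-culture arrays were above both untreated arrays, with a difference of 0.35 (SE 0.09, adjusted p = 0.0366). PRC1, which bundles the microtubules of the spindle midzone, and the kinesin KIF20A were higher on every co-culture array as well, by 0.23 and 0.19 (adjusted p = 0.0539 and 0.0726), and KIF11, the motor that pushes the spindle poles apart, differed by 0.07. TPX2, which activates Aurora A, was at 10.99 and 11.36 with OB SostKO, 11.36 and 11.05 with OB WT + rhDKK1, and 11.38, 11.17 and 11.60 with OB WT + rhSOST, against 11.52 and 11.72 in untreated PC3 cells. OB WT + rhSOST array 3 was the only co-culture array of TPX2 within the untreated range, and the difference was -0.36 (adjusted p = 0.138). KIF23, a midzone kinesin, differed by -0.16 (adjusted p = 0.171). The KIF2C call was lost without untreated array 1 (0.22, adjusted p = 0.315), OB SostKO array 1 (0.0618), OB WT + rhDKK1 array 1 or 2 (0.0594 and 0.0827), or OB WT + rhSOST array 1 or 2 (0.0539 and 0.0666).

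None of the 4 genes of the centromere and the chromosomal passenger complex passed the test. CENPA, the histone variant that marks centromeres, was at 9.65 and 9.55 with OB SostKO, 9.64 and 9.71 with OB WT + rhDKK1, and 9.57, 9.54 and 9.57 with OB WT + rhSOST, against 9.76 and 9.76 in untreated PC3 cells. It was lower on every co-culture array, by 0.15 (SE 0.06, adjusted p = 0.137). CENPF, a protein of the outer kinetochore, was at 10.46 and 10.36 with OB SostKO, 10.44 and 10.47 with OB WT + rhDKK1, and 10.37, 10.49 and 10.70 with OB WT + rhSOST, against 10.35 and 10.39 in untreated PC3 cells. Its groups overlapped, and its difference was 0.10 (adjusted p = 0.507). The kinetochore motor CENPE and BIRC5, which encodes the passenger protein survivin, differed by 0.00 and -0.04.

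The cytokinesis genes overlapped between co-culture and untreated arrays. ANLN, which encodes the contractile ring protein anillin, was at 12.03 and 12.21 with OB SostKO, 12.21 and 12.23 with OB WT + rhDKK1, and 12.11, 12.30 and 12.38 with OB WT + rhSOST, against 12.14 and 12.15 in untreated PC3 cells. ECT2, the exchange factor that activates RhoA at the ring, was at 10.85 and 11.18 with OB SostKO, 11.09 and 11.06 with OB WT + rhDKK1, and 11.10, 11.17 and 11.22 with OB WT + rhSOST, against 11.03 and 11.08 in untreated PC3 cells. For both, OB SostKO array 1 was the lowest and OB WT + rhSOST array 3 the highest array, and the differences of 0.05 and 0.03 had adjusted p-values of 0.725 and 0.852.

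MKI67, the gene of the proliferation marker Ki-67, showed a small difference that did not pass the test. MKI67 was at 10.54 and 10.48 with OB SostKO, 10.57 and 10.54 with OB WT + rhDKK1, and 10.55, 10.56 and 10.78 with OB WT + rhSOST, against 10.38 and 10.48 in untreated PC3 cells. The co-culture arrays lay above both untreated arrays, the closest of them, OB SostKO array 2, by less than the last digit shown, and the difference was 0.14 (SE 0.08, adjusted p = 0.287), while with the mean of its kept probe sets MKI67 differed by -0.16 (adjusted p = 0.384). TOP2A, a topoisomerase that untangles sister chromatids, was at 11.73 and 11.99 with OB SostKO, 12.06 and 11.80 with OB WT + rhDKK1, and 11.97, 11.68 and 10.48 with OB WT + rhSOST, against 10.77 and 11.33 in untreated PC3 cells. Of the co-culture arrays, 6 were above both untreated arrays, and OB WT + rhSOST array 3 was below both. The difference of 0.68 had an SE of 0.34 (adjusted p = 0.238).

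Several members are read by more than 1 probe set, and these did not always move together. In all, 115 probe sets are annotated to the members, 105 passed the filter, and 33 members had more than 1 of these, of which 16 had differences of opposite sign over all co-cultures. The other kept probe set of TOP2A (201292_at) read between 11.13 and 11.56 on all arrays and differed by -0.04, and on OB WT + rhSOST array 3 it held its highest value. For CDK1, the probe set 231534_at was at 7.41 and 7.43 with OB SostKO, 7.29 and 7.27 with OB WT + rhDKK1, and 7.56, 7.19 and 5.71 with OB WT + rhSOST, against 5.54 and 4.85 in untreated PC3 cells. This was a difference of 1.98 (SE 0.42, adjusted p over probe sets = 0.0326), with OB WT + rhSOST array 3 near the untreated arrays. The brightest probe set of CDK1 (203213_at) lay between 12.88 and 13.07 on all 9 arrays. A dim probe set of BIRC5 (1555826_at) behaved alike, with 6.98 and 6.90 with OB SostKO, 6.64 and 6.86 with OB WT + rhDKK1, and 6.78, 6.61 and 6.02 with OB WT + rhSOST, against 5.84 and 5.48 in untreated PC3 cells (difference 1.06, SE 0.19, adjusted p over probe sets = 0.0194), while the brightest differed by -0.04. The probe set 236312_at of MAD2L1 was at 7.78 and 7.98 with OB SostKO, 8.05 and 8.01 with OB WT + rhDKK1, and 7.97, 7.9998 and 7.92 with OB WT + rhSOST, against 7.53 and 7.65 in untreated PC3 cells (difference 0.37, SE 0.07, adjusted p over probe sets = 0.0284). The probe set 238977_at of MCM6 was at 6.23 and 6.44 with OB SostKO, 6.498 and 6.43 with OB WT + rhDKK1, and 6.49, 6.63 and 6.43 with OB WT + rhSOST, against 6.004 and 6.03 in untreated PC3 cells (difference 0.42, SE 0.08, adjusted p over probe sets = 0.0241). Both were higher on every co-culture array, where the brightest probe sets of the same genes were lower. For MKI67, 212020_s_at differed by -0.57 where the brightest (212022_s_at) differed by 0.14. The KIF2C difference was seen by both of its kept probe sets, at 0.35 each, and the second reached an adjusted p over probe sets of 0.0301. Over all kept probe sets of the members, 7 were higher and 1 was lower in co-culture, 6.67% and 0.952%, beside 4.82% and 2.94% of the kept probe sets with a gene symbol.

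**Figure D4:**
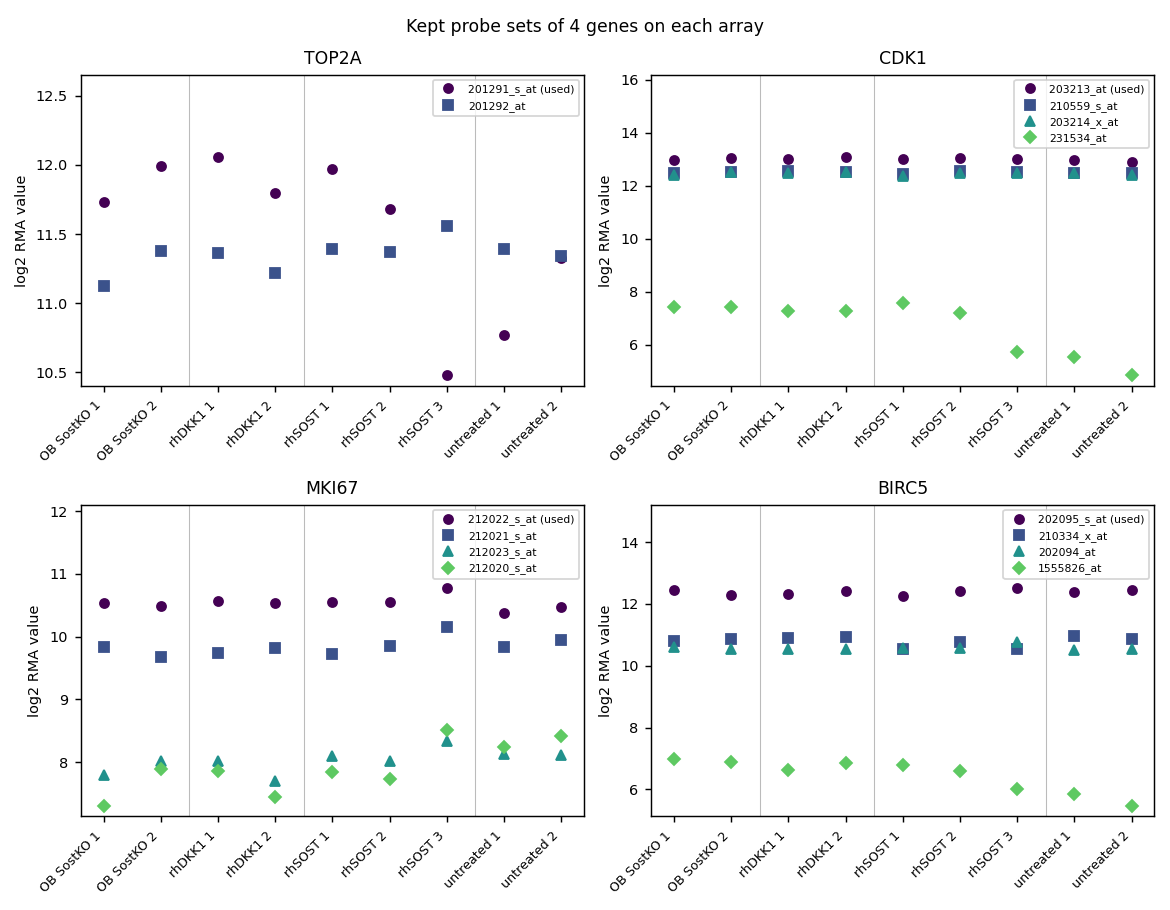
Each symbol is the log2 value of a kept probe set on an array, with grey lines between groups, for TOP2A, CDK1, MKI67 and BIRC5, and the probe set used for the gene is named as used. For TOP2A, a single probe set (201291_s_at) is higher on 6 co-culture arrays, and OB WT + rhSOST array 3 is below both untreated arrays. For CDK1 (231534_at) and BIRC5 (1555826_at), a single probe set is higher on every co-culture array, with OB WT + rhSOST array 3 closest to the untreated arrays. The other probe sets of CDK1 and TOP2A span less.

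Between the co-cultures, no member passed the test. In each of the 3 direct comparisons limma called 0 members, beside 0% of all genes. At an unadjusted p under 0.05, FOXM1 had a difference of -0.29 for OB SostKO against OB WT + rhSOST, BUB1B had a difference of -0.18 for OB WT + rhDKK1 against OB WT + rhSOST, and 0 members differed between OB SostKO and OB WT + rhDKK1. The median difference over the members was -0.04 for OB SostKO against OB WT + rhSOST, -0.03 for OB WT + rhDKK1 against OB WT + rhSOST, and -0.02 for OB SostKO against OB WT + rhDKK1.

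Of 128 further cell cycle genes tested, 7 were higher and 2 were lower over all co-cultures, 5.47% and 1.56%, beside the 6.55% and 4.03% of all genes. Of 10 further inhibitors and checkpoint kinases, CDKN1C and ATR, the kinase that senses stalled replication forks, were higher in each of the co-cultures. ATR was at 9.42 and 9.38 with OB SostKO, 9.36 and 9.36 with OB WT + rhDKK1, and 9.36, 9.50 and 9.47 with OB WT + rhSOST, against 8.95 and 9.05 in untreated PC3 cells (0.40 over all co-cultures, SE 0.06, adjusted p = 0.00711). Of 36 genes of origins and replication, RPA1, the large subunit of the protein that coats single-stranded DNA, was higher in each co-culture, with 11.94 and 11.83 with OB SostKO, 11.85 and 11.87 with OB WT + rhDKK1, and 11.79, 11.92 and 11.76 with OB WT + rhSOST, against 11.48 and 11.52 in untreated PC3 cells (0.36, SE 0.07, adjusted p = 0.0132). GINS3, part of the active helicase, was lower by 0.24 over all co-cultures (adjusted p = 0.0351). Of 19 genes of D cyclins, RB proteins and E2F partners, E2F3 was higher by 0.56 (adjusted p = 0.0306) and CDK6, a partner of the D cyclins, lower by 0.28 (adjusted p = 0.0298) over all co-cultures. Of 46 kinetochore, cohesin, condensin and spindle genes, the kinesin KIF14, the kinetochore subunit SPC24 and the cohesin regulator PDS5B were higher, by 0.43, 0.37 and 0.35 (adjusted p = 0.0278, 0.0195 and 0.0339), and 0 of 17 ubiquitin ligase genes passed (1 at an unadjusted p under 0.05, limma). With the mean of the kept probe sets, RPA1 differed by 0.18, KIF14 by 0.28, SPC24 by 0.14, CDK6 by -0.07 and GINS3 by -0.17, and none of these passed the test (adjusted p = 0.0890, 0.0952, 0.244, 0.573 and 0.101 in that order). The RPA1 calls in the single co-cultures were also lost without the filter, with the compared groups alone and with the replicate block. Those of ATR with OB SostKO and OB WT + rhDKK1 were lost with the compared groups alone and with the replicate block. CDKN1C stayed called over all co-cultures with each array left out. ATR, SPC24, RPA1, KIF14, E2F3, CDK6, GINS3 and PDS5B did not, with adjusted p-values of up to 0.0901, 0.182, 0.1205, 0.249, 0.210, 0.175, 0.204 and 0.273 in that order.

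The promoters of the members show which of the known cell cycle elements stand near their starts. The sequences are from RefSeq on GRCh38.p14, from 250 bases before to 50 bases after the start of the gene, and 47 of the 58 members matched. The cell cycle homology region (TTTGAA or TTCGAA), the element through which mitotic genes are held silent early in the cycle, was found on either strand in 44.7% of the members' promoters, beside 11.5% of the promoters of genes tested and 16.6% of all promoters. The CCAAT box was found in 70.2%, beside 36.2% and 35.7%, and an E2F motif (TTTCCCGC, TTTGGCGC, TTTCGCGC or TTTGCCGC) in 27.7%, beside 4.93% and 3.33%. The cell cycle homology region and the CCAAT box stood together in 40.4% of the members' promoters, beside 4.86% and 6.58%. The median difference over all co-cultures was 0.07 for the 21 members with a cell cycle homology region and 0.04 for the 26 without it, and -0.01 for the 13 with an E2F motif and 0.08 for the 34 without it. The 120 bases before the start are printed 5′ to 3′ on the strand of the gene for PLK1 (chr16:23678769-23678888, plus strand), CCNB2 (chr15:59105026-59105145, plus strand) and CDC20 (chr1:43358861-43358980, plus strand), which carry both elements, for CCNB1 (chr5:69167030-69167149, plus strand) and RRM1 (chr11:4094565-4094684, plus strand), with CCAAT boxes only in this stretch, and for CDKN1A (chr6:36678594-36678713, plus strand), the member that fell, in which none of the motifs searched was found. Capitals mark the cell cycle homology region and the CCAAT boxes.
PLK1: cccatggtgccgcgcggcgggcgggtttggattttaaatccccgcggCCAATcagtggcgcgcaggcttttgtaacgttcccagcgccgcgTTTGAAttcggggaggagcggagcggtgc
CCNB2: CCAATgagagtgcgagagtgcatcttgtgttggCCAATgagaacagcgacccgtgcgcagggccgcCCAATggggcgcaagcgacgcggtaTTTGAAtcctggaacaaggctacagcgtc
CDC20: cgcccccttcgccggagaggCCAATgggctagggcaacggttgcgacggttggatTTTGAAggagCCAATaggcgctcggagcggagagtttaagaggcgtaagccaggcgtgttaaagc
CCNB1: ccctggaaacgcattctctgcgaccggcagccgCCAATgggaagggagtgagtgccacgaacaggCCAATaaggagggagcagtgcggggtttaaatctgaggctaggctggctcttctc
RRM1: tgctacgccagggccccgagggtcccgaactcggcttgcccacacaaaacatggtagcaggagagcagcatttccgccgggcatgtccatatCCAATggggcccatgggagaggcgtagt
CDKN1A: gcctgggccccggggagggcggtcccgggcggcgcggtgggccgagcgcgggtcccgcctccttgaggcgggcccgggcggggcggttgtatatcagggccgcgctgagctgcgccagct
In PLK1 and CCNB2 the cell cycle homology region begins at position -29 from the start, with the nearest CCAAT box at -73 and -54. The motifs are matches of letters, and whether any factor binds them in these cells was not measured.

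The arrays themselves differed between co-culture and untreated cells in the poly-A and ACTB controls. The poly-A control probe sets averaged between 6.27 and 7.07 on the 7 co-culture arrays, against 10.81 and 11.51 on the untreated arrays. The 3′ minus 5′ difference of the ACTB control probe sets, a sign of RNA length, was between 0.99 and 2.06 on the co-culture arrays, against 0.50 and 0.88 on the untreated arrays, and it was highest on an OB WT + rhSOST array. For the GAPDH control probe sets the same difference overlapped. It was between 0.12 and 0.42 on the co-culture arrays, highest on OB WT + rhSOST array 3, against 0.15 and 0.24 on the untreated arrays. Culture condition and the poly-A and ACTB values cannot be told apart in any comparison with untreated PC3 cells. The part of the control values in the differences of CDKN1A and the other members was not tested. KRT8, KRT18 and EPCAM, markers of epithelial cells, averaged 11.98, 13.30 and 13.23. Of 9 osteoblast markers, BGLAP had 0 probe sets and 5 passed the filter. For these 5, limma called 0 in any comparison with untreated PC3 cells (1 higher with OB WT + rhSOST and 1 lower with OB WT + rhDKK1 at an unadjusted p under 0.05). The osteoblasts were mouse cells and the probe sets are human, so these markers cannot settle whether osteoblast RNA was present.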

How the data were processed

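Total RNA of PC3 cells was measured on 9 arrays, grouped by the sample labels. The deposited values are log2 RMA values of the authors (tool named in the submitters' processing notes); the version is not given in the sources used here. RMA subtracts background, gives all arrays the same distribution and condenses the probes of a set, so values are relative within these arrays. Array medians lay between 5.45 and 5.52 and precision is limited by their small number.

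The 54675 probe sets held 62 controls, which were not tested, and 33970 that were kept for reaching the 40th percentile on 2 or more arrays. Of the kept probe sets, 28244 carried 1 gene symbol, 1307 several and 4419 none, from the platform's annotation updated to RefSeq names; the brightest stood for its gene. The model had 4 group means and was fitted in limma 3.58.1 (lmFit and eBayes, R 4.3.3), with 8.66 degrees of freedom and Benjamini-Hochberg adjustment over 14863 genes; probe sets were also tested singly. The procedure was run on simulated data with independent noise for each gene and changes planted in OB SostKO alone. Its recovery rates are not given here, so it is no support for the calls.

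The members and all gene lists were chosen with earlier results of these data known. Array values are given for members that passed, for the 2 with the smallest p in role groups where none did, and for MKI67, CCNB1 and CDKN1A; of other lists, up to 6 genes that passed are named. Some genes and a gene list are not reported here. CDKN1B, FOXM1, PLK1, TPX2 and the probe sets shown were added with their values in view. Alternatives were other filters and thresholds, cyclic loess, other probe set rules, the 2 groups alone, a replicate block, each array left out, and the ANOVA with Tukey's comparisons and paired test of the methods.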

Additional observations from a re-analysis of the deposited data

How the results depend on the processing

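CDKN1A stayed lower over all co-cultures under every alternative that was fitted (-0.87 to -0.76, each array left out in turn). It has 1 probe set, so the probe set rules could not change its difference. CDKN1C lay between 0.59 and 0.68 with each array left out. With the mean of its kept probe sets CDKN1C lost its call (0.27, adjusted p = 0.0757 by limma). MCM2, RRM1, AURKA and KIF2C lost theirs with some arrays left out. With that mean MCM2, AURKA and KIF2C kept their calls (adjusted p = 0.0194, 0.0181 and 0.0193) and RRM1 did not. CDK1 gained a call with it (0.53, adjusted p = 0.0234 by limma). Counts of members that moved are given as higher and lower in co-culture. They stand without the shares of all genes, so they are not read as a result about the members. The cause was not tested beyond each setting's construction. At an unadjusted p under 0.05 limma gave 7 and 5 with OB SostKO, 10 and 4 for OB WT + rhDKK1, 15 and 2 for OB WT + rhSOST, 10 and 6 over all co-cultures, 0 and 1 for OB SostKO against OB WT + rhSOST, and 0 and 1 for OB WT + rhDKK1 against OB WT + rhSOST. With a 2-fold change required as well, all counts were 0. Without the filter, 0 were higher with OB WT + rhSOST; with a 60th percentile filter, 2 were higher with OB SostKO; after cyclic loess, 1 was higher with OB SostKO and 0 with OB WT + rhSOST. With the mean of a gene's probe sets 2 were higher with OB WT + rhSOST, and the median of OB WT + rhDKK1 against OB WT + rhSOST was 0.019; with every probe set, 1 was higher with OB SostKO and 7 over all co-cultures. With the compared groups alone, 0 were lower with OB SostKO and 0 higher with OB WT + rhSOST. With the replicate block 0 were higher with OB WT + rhSOST and 2 over all co-cultures, where RRM1, AURKA and KIF2C had adjusted p-values of 0.0512, 0.0632 and 0.0561. Same-numbered arrays showed no steady link: their deviations correlated between -0.57 and 0.31 over 12 pairs of arrays. In groups of 2 arrays the deviations mirror each other, so some of these values occur more than once. A crossed replicate block, chosen after seeing the data, gave 3 and 2 for OB WT + rhDKK1 against untreated PC3. By the unadjusted ANOVA with Tukey's comparisons the counts were 4 and 3 with OB SostKO, 7 and 3 for OB WT + rhDKK1, 7 and 4 for OB WT + rhSOST, and 1 lower for OB SostKO against OB WT + rhSOST; after adjustment they were 0 lower with OB SostKO and OB WT + rhDKK1, and 0 and 0 for OB WT + rhSOST. By the unadjusted paired test they were 3 higher with OB SostKO, 2 and 3 for OB WT + rhDKK1, 5 and 3 for OB WT + rhSOST, 1 and 5 for OB SostKO against OB WT + rhSOST, 1 higher for OB WT + rhDKK1 against OB WT + rhSOST, and 1 and 2 for OB SostKO against OB WT + rhDKK1; after adjustment all were 0, but this test has 1 degree of freedom and could hardly pass. With each array left out, 0 to 1 were higher and 1 to 2 lower with OB SostKO, 0 to 1 higher with OB WT + rhDKK1, 0 to 1 higher with OB WT + rhSOST, and 0 to 5 higher and 1 to 2 lower over all co-cultures; the median was -0.027 to 0.045 with OB SostKO and -0.04 to 0.00 for OB WT + rhDKK1 against OB WT + rhSOST. The 5 members that passed the test over all co-cultures kept their direction in every fit to all groups. They were picked by their difference relative to the spread on these same arrays, so a kept direction is no further support for their calls. Of the 53 that did not pass, 17 had the opposite sign in at least 1 such fit, 11 of them with the mean of the kept probe sets, where MCM4, MCM6, BIRC5 and CDC25A stood at 0.08, 0.15, 0.23 and 0.26 and MKI67 at -0.16.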
